A study of Mus musculus with 24 samples.

Results

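The 9 genes described here belong to the glucocorticoid response and to the C/EBP family of transcription factors. They are Nr3c1, Fkbp5, Tsc22d3, Sgk1, Zbtb16, Cebpb, Cebpd, Klf9 and Klf15. They were chosen by name, and each was read from 1 probe set of a microarray, the one that was paired with that symbol alone and had the highest mean over the 24 arrays. They are 9 of the 18820 genes tested. Only Klf9 had a second probe set of its own.

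RNA was measured from the left ventricles of male adult mice, 1 mouse to an array, and 3 mice made up each of 8 groups, which joined 2 genotypes with 4 treatments. The Per2-/- mice lacked the clock repressor Per2 in all tissues and not only in the heart, and the wildtype mice were C57BL6 mice (written BL6C57 in the labels). Both came from the Jackson Laboratory, and no source states that the 2 genotypes on the arrays were littermates. In the I30 group the heart was made ischemic for 30 minutes and taken without reperfusion. IP0 stands for ischemic preconditioning, in which occlusion for 5 minutes alternated with reflow for 5 minutes over 4 cycles. In the I30R60 group reflow for 60 minutes followed an occlusion of 30 minutes. Sham hearts were the controls, and the labels call them both untreated and sham operated. The labels state anesthesia, a catheter and a stitch in the heart for all samples, sham samples included, but do not describe the sham operation further, and all experiments were done at the onset of light. The comparisons address how the genes responded to each protocol and whether the response depended on Per2.

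Glucocorticoids, the adrenal steroids of the stress response, enter cells and bind the receptor encoded by Nr3c1. The receptor leaves its chaperone complex, moves to the nucleus and activates genes such as Fkbp5, Tsc22d3, Sgk1, Zbtb16, Klf9 and Klf15, and several of these follow a daily rhythm because the hormone does. Cebpb and Cebpd encode transcription factors that are induced within the first hours of injury and inflammation, above all by the IL-6 and STAT3 pathway, and that also respond to glucocorticoids.

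The upstream sequences of 4 of the genes are shown because they hold different matches to elements of these pathways. Promoter windows of 250 bases before the start of transcription were taken from RefSeq on the mouse build GRCm38.p6. For the 9 genes, windows on the chromosome that holds Nr3c1 were left out, though the shares over all windows below include them. There were 13 windows for 6 of the 9 genes (Fkbp5, Tsc22d3, Sgk1, Cebpb, Klf9 and Klf15). The promoter sequences used held no window of Cebpd, Zbtb16 or Nr3c1. Capitals mark an E-box CACGTG, which the clock activators bind, a TGACG core of the cyclic AMP response element (or its reverse complement CGTCA), and in Sgk1 a palindromic element of the glucocorticoid receptor (GNACA and its reverse complement TGTNC with 3 bases between them). The C/EBP element TTGCNNAA was searched as well, both strands were read for all 4 motifs, and 0 matches overlapped each other. The window of Fkbp5 lies at chr17:28486150-28486399 on the minus strand, that of Cebpb at chr2:167688665-167688914 on the plus strand, that of Klf15 at chr6:90462326-90462575 on the plus strand, and the fifth of the 6 windows of Sgk1 at chr10:21993640-21993889 on the plus strand.
Fkbp5: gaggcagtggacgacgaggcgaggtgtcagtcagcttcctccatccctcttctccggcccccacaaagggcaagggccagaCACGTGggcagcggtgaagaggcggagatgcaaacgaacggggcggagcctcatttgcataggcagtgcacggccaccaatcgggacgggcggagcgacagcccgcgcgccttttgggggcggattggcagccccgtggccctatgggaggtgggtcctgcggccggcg
Cebpb: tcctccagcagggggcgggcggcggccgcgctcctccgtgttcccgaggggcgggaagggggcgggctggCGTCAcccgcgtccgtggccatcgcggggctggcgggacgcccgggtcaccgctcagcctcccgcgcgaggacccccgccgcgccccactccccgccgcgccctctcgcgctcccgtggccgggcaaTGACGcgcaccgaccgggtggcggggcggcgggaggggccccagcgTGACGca
Klf15: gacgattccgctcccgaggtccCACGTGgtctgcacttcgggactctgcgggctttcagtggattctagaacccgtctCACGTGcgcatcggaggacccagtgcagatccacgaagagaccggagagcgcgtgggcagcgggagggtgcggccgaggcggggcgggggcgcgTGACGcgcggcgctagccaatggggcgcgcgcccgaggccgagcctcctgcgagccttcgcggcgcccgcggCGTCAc
Sgk1: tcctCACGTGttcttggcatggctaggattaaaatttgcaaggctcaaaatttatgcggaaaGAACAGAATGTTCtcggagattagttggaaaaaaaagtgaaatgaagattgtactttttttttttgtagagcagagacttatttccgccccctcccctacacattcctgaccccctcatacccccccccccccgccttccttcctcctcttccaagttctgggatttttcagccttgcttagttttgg

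Fkbp5 had 1 E-box, 169 to 164 bases before its start, Klf15 had 2, at 228 to 223 and 172 to 167 bases before its start, and the Sgk1 window shown had 1, at 246 to 241 bases. Of all 32851 promoter windows of this length, 6.02% held an E-box. Cebpb had 3 TGACG cores, the nearest 7 to 3 bases before its start, Klf15 had 2, at 78 to 74 and 6 to 2 bases, and Klf9, 1 window of Tsc22d3 and 1 of Sgk1 had 1 each. A core was found in 17.8% of all windows. The palindrome of the receptor was found 188 to 176 bases before a start of Sgk1 and in 0.387% of all windows, and it was in 1 of the 13 windows of these genes. The C/EBP element was in the second Sgk1 window, and in 9.56% of all windows. A match of letters is a description of the sequence and was not tested as a binding site.

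The deposited values are log2 intensities that carry no detection calls. Their median over all arrays was 4.44. The 9 genes were expressed above that median, with means over the 24 arrays between 5.63 for Cebpd, at percentile 54.2 of the probe sets with 1 symbol, and 10.11 for Zbtb16, at percentile 96.5. The median SD between hearts of a group was 0.172, and the number of arrays limits the precision. The interquartile range of an array lay between 3.85 and 3.98 for Per2-/- I30 hearts, between 3.76 and 3.87 for wildtype I30 hearts, and between 3.95 and 4.11 for the other groups. Heart muscle markers were even over the arrays, with a mean of 4 genes between 12.83 and 12.97. The atrial light chain Myl7 was high in 4 arrays. Replicate 3 of the Per2-/- sham group had 11.21 and replicate 3 of the Per2-/- IP0 group 9.12, and replicates 1 and 2 of the wildtype sham group had 8.24 and 5.22, while the other 20 arrays had 2.79 to 3.73. Results are also given without these 4 arrays, which leave 1 wildtype sham array. The Per2 probe set was not called lower in Per2-/- hearts: its mean was 5.09 in Per2-/- and 6.21 in wildtype I30 hearts (difference -1.12, adjusted p = 0.0643) and 5.66 in Per2-/- and 5.79 in wildtype sham hearts (-0.13, adjusted p = 0.966). Whether its probes lie in the deleted part is not given in the sources used here, so these arrays do not check the genotype labels.

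Cebpd was the gene of the 9 that changed most clearly, and it was called higher after I30R60 in both genotypes. Cebpd encodes C/EBP delta, an immediate factor of the acute phase response. Its log2 values were 6.69, 6.58 and 6.78 in Per2-/- I30R60 hearts, against 4.65, 5.01 and 4.75 in Per2-/- sham hearts. In wildtype hearts they were 7.01, 6.14 and 6.30 after I30R60, against 4.95, 5.09 and 5.25 in sham hearts. All 6 I30R60 hearts lay above all 6 sham hearts, which held for few genes (4.74% of all genes did not overlap in this comparison, in either direction). The rise was 1.88 in Per2-/- hearts (standard error 0.17, 3.68-fold, adjusted p = 1.8e-06) and 1.39 in wildtype hearts (standard error 0.17, 2.62-fold, adjusted p = 5.36e-05). Without the 4 arrays with high Myl7 Cebpd was still called in both, at 1.85 in Per2-/- hearts (adjusted p = 0.000136) and 1.24 in wildtype hearts (adjusted p = 0.0366). The study's methods name Student's test beside an analysis of variance, without saying which was used on the arrays. Student's test per gene called Cebpd in neither genotype (adjusted p = 0.0801 in Per2-/- and 0.299 in wildtype hearts). The difference between these responses was 0.49 (95% interval -0.02 to 1.00, adjusted p = 0.909), so a difference between the genotypes was not called.

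The other protocols moved Cebpd less. It was 5.54, 5.69 and 5.88 in Per2-/- IP0 hearts, 0.90 above the sham hearts of that genotype (standard error 0.17, adjusted p = 0.0327), and 5.39, 5.60 and 5.41 in wildtype IP0 hearts, a difference from wildtype sham hearts of 0.37 (adjusted p = 0.388). After I30 it was 4.97, 5.21 and 5.00 in Per2-/- hearts, which overlapped with sham hearts (difference 0.26, adjusted p = 0.783), and 5.87, 5.96 and 5.51 in wildtype hearts, 0.69 above sham hearts (standard error 0.17, adjusted p = 0.041). Both of these smaller calls were weak. The call in Per2-/- IP0 hearts was lost without any 1 of the IP0 arrays (adjusted p = 0.0745, 0.113 and 0.18 without replicates 1, 2 and 3) or without sham replicate 1 or 3 (0.136 and 0.127). The call in wildtype I30 hearts was lost without I30 replicate 1 or 2 (adjusted p = 0.113 and 0.109) or any 1 of the sham arrays (0.162, 0.0872 and 0.0633 without replicates 1, 2 and 3). Without the 4 arrays with high Myl7 neither was called (adjusted p = 0.486 in Per2-/- IP0 and 0.523 in wildtype I30 hearts). Averaged over the genotypes, Cebpd was higher after I30R60 than after I30 by 1.16 (adjusted p = 1.95e-06) and than after IP0 by 0.99 (adjusted p = 3.63e-05).

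**Figure D1:**
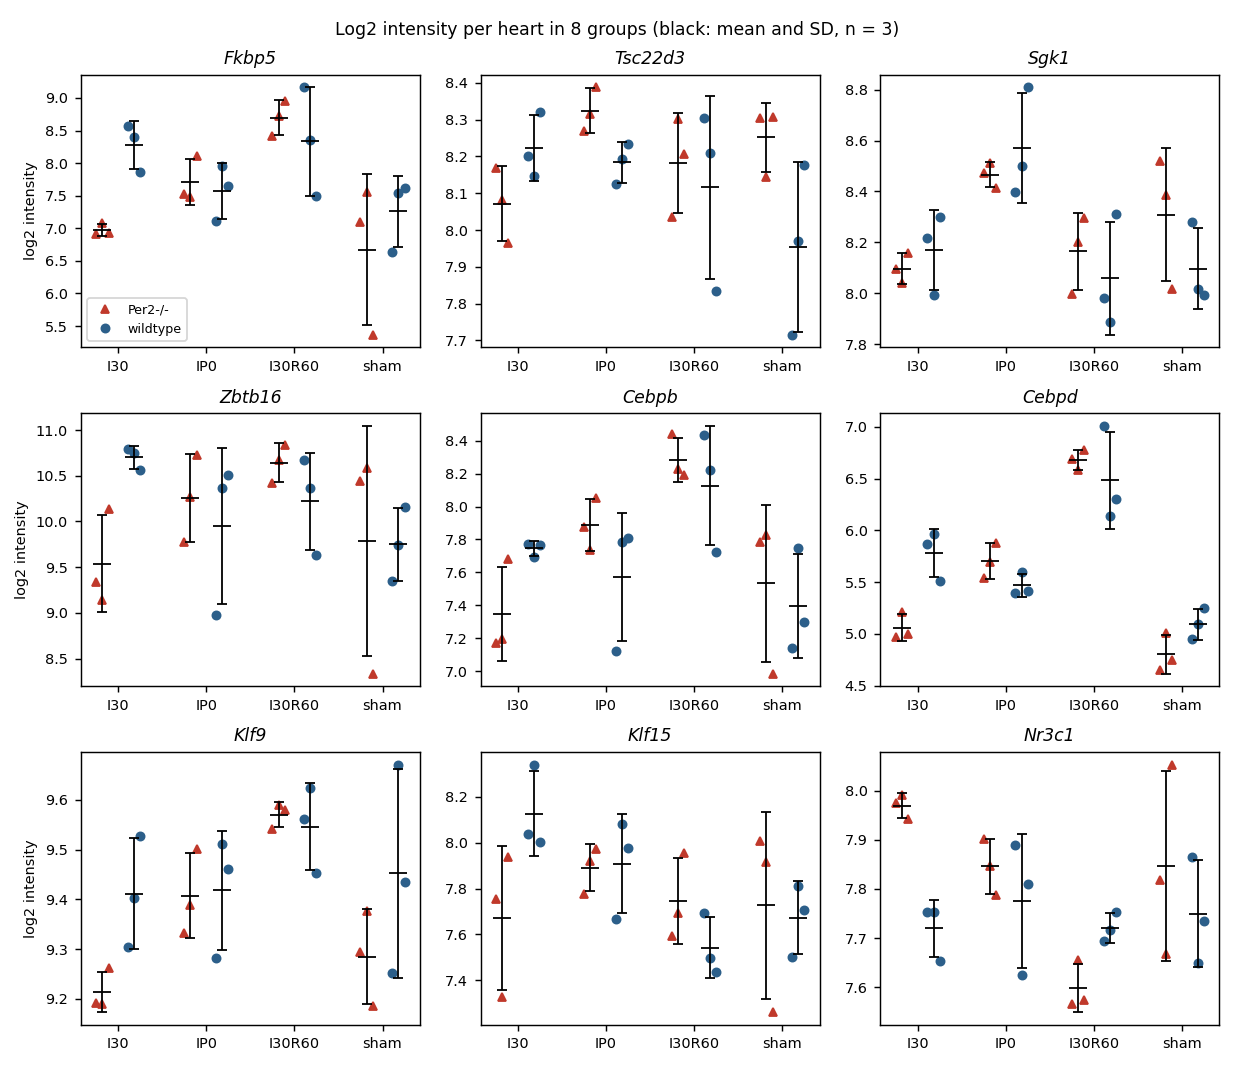
Log2 intensity (vertical axes, one scale per gene) of the 9 genes in each of 24 hearts, by treatment, with Per2-/- hearts (triangles) left of wildtype hearts (circles). Black bars show the mean and SD of 3 hearts. Cebpd of all 6 I30R60 hearts lies above that of all 6 sham hearts, and Per2-/- sham replicate 3 is the lowest point of Fkbp5, Zbtb16, Cebpb, Klf9 and Klf15.

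Cebpb, which encodes C/EBP beta, a factor that can pair with C/EBP delta, was also higher after I30R60, by less than Cebpd. Its log2 values were 8.44, 8.23 and 8.19 in Per2-/- I30R60 hearts, against 7.78, 7.83 and 6.98 in Per2-/- sham hearts. They were 8.43, 8.22 and 7.73 in wildtype I30R60 hearts, against 7.14, 7.75 and 7.30 in wildtype sham hearts. The hearts did not overlap in the Per2-/- comparison and overlapped in the wildtype comparison. Averaged over the genotypes the rise was 0.74 (standard error 0.16, 1.67-fold, adjusted p = 0.00512), and 0.66 without the 4 arrays with high Myl7 (adjusted p = 0.044). Within a genotype it was not called (Per2-/- 0.75, adjusted p = 0.0653, and wildtype 0.73, adjusted p = 0.109). After I30R60 Cebpb was also higher than after I30, by 0.66 (standard error 0.16, adjusted p = 0.0106).

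Fkbp5, which encodes a co-chaperone that limits the hormone binding of the glucocorticoid receptor, rose after I30R60 in Per2-/- hearts. Its values were 8.42, 8.73 and 8.95 in Per2-/- I30R60 hearts, against 7.10, 7.55 and 5.37 in Per2-/- sham hearts. In wildtype hearts they were 9.16, 8.35 and 7.49 after I30R60, against 6.63, 7.53 and 7.61 in sham hearts. The Per2-/- groups did not overlap, while 1 wildtype I30R60 heart lay below 2 of the wildtype sham hearts. The rise in Per2-/- hearts was 2.03 (standard error 0.44, 4.07-fold, adjusted p = 0.00906). It rested in part on Per2-/- sham replicate 3, the lowest of all 24 arrays and the array with the highest Myl7. Without that array it was 1.37 and was no longer called (adjusted p = 0.0581), nor was it when only these groups were fitted (adjusted p = 0.109) or by Student's test per gene (0.344). In wildtype hearts the difference was 1.07 (95% interval 0.15 to 1.99, adjusted p = 0.271), and the difference between the genotypes was 0.95 (95% interval -0.35 to 2.26, adjusted p = 0.957). Averaged over the genotypes Fkbp5 rose by 1.55 (standard error 0.31, adjusted p = 0.00272), and without the 4 arrays with high Myl7 the difference was 1.05 (adjusted p = 0.0537). Differences of about the size of that in wildtype I30R60 hearts were measured in 2 other groups. Fkbp5 was 8.56, 8.41 and 7.86 in wildtype I30 hearts, all above wildtype sham hearts (difference 1.02, adjusted p = 0.207), and 7.53, 7.49 and 8.11 in Per2-/- IP0 hearts (difference 1.04, adjusted p = 0.525, and 0.38 without Per2-/- sham replicate 3).

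Tsc22d3 and Sgk1 were not called after I30R60 against sham hearts. Tsc22d3, which encodes the anti-inflammatory leucine zipper protein GILZ, kept within 7.72 to 8.39 over all 24 hearts, and its difference after I30R60 averaged over the genotypes was 0.05 (95% interval -0.13 to 0.22). Sgk1, a kinase that regulates ion channels and transporters, was highest after IP0. It was 8.47, 8.51 and 8.41 in Per2-/- and 8.40, 8.50 and 8.81 in wildtype IP0 hearts, against 8.09, 8.04 and 8.16 in Per2-/- and 8.22, 7.99 and 8.30 in wildtype I30 hearts. The 6 IP0 hearts lay above the 6 I30 hearts and also above the 6 I30R60 hearts (7.89 to 8.31), where 3.41% and 3.82% of all genes did not overlap. After IP0 Sgk1 was higher than after I30 by 0.38 (standard error 0.10, adjusted p = 0.0251). After I30R60 it was lower than after IP0 (difference -0.41, standard error 0.10, adjusted p = 0.0144). The first of these was lost without wildtype I30 replicate 2, Per2-/- I30 replicate 2, wildtype IP0 replicate 3 or Per2-/- IP0 replicate 2 (adjusted p = 0.056, 0.0585, 0.0634 and 0.0538). Against sham hearts, 8.52, 8.39 and 8.02 in Per2-/- and 8.28, 8.02 and 7.99 in wildtype mice, Sgk1 after IP0 differed by 0.32 over both genotypes (adjusted p = 0.111).

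Zbtb16 encodes the transcriptional repressor PLZF and had the highest intensity of the 9 genes, but also the widest spread between hearts of a group, a pooled SD of 0.64. It was 10.42, 10.67 and 10.84 in Per2-/- I30R60 hearts, against 10.44, 10.58 and 8.34 in Per2-/- sham hearts, a difference of 0.86 (95% interval -0.14 to 1.85, adjusted p = 0.372). In wildtype hearts it was 10.67, 10.36 and 9.64 after I30R60, against 9.35, 9.74 and 10.15 in sham hearts (0.47, adjusted p = 0.749). Both pairs of groups overlapped, and without Per2-/- sham replicate 3 the difference in Per2-/- hearts was 0.13 (adjusted p = 0.922). After I30 Zbtb16 was 10.56 to 10.80 in wildtype hearts, all above wildtype sham hearts, where 24.7% of all genes did not overlap. That difference was 0.95 (95% interval -0.04 to 1.94, adjusted p = 0.274). In Per2-/- I30 hearts the difference was -0.25 (adjusted p = 0.939), with sham replicate 3 included. With intervals of this width, a change of Zbtb16 of close to 2-fold could not be told from none.

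The 2 Krüppel-like factors were not called against sham hearts in either genotype. Klf9 encodes a repressor that is a direct early target of the receptor. Its values were 9.54, 9.59 and 9.58 in Per2-/- and 9.56, 9.62 and 9.45 in wildtype I30R60 hearts, against 9.19, 9.19 and 9.26 in Per2-/- and 9.30, 9.40 and 9.53 in wildtype I30 hearts. Averaged over the genotypes it was higher after I30R60 than after I30 by 0.25 (standard error 0.07, 1.19-fold, adjusted p = 0.0222). That call was lost without wildtype I30 replicate 1 (adjusted p = 0.055) or wildtype I30R60 replicate 2 (0.0515), and the second Klf9 probe set gave 0.30 (adjusted p = 0.184). Klf15, a regulator of amino acid and lipid use in heart muscle, was called in none of the comparisons. It ranged over 7.59 to 7.96 in Per2-/- and 7.44 to 7.69 in wildtype I30R60 hearts, and over 7.26 to 8.01 in Per2-/- and 7.50 to 7.81 in wildtype sham hearts.

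Nr3c1, the receptor itself, kept within 7.57 to 8.05 over all 24 hearts and was called in none of the comparisons. It was 7.57, 7.65 and 7.57 in Per2-/- I30R60 hearts, against 7.82, 7.67 and 8.05 in Per2-/- sham hearts, without overlap (difference -0.25, 95% interval -0.44 to -0.06, adjusted p = 0.131). In wildtype hearts it was 7.69, 7.72 and 7.75 after I30R60 and 7.87, 7.65 and 7.73 in sham hearts (difference -0.03, adjusted p = 0.933). The direction in Per2-/- hearts was opposite to that of Fkbp5, Cebpb and Cebpd. Per2-/- sham replicate 3, the array with the highest Myl7, had the highest Nr3c1 value of all 24 arrays (8.05). Per2-/- sham replicate 2 (7.668) lay only just above the highest Per2-/- I30R60 heart (7.655).

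**Figure D2:**
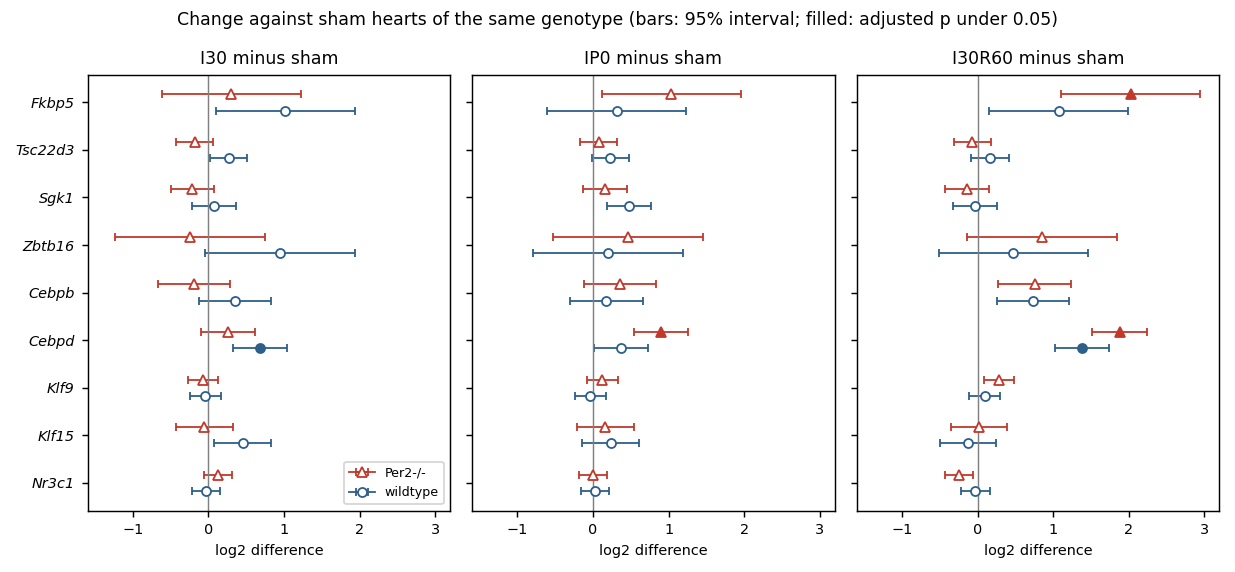
Log2 difference of each gene between treated and sham hearts of the same genotype (horizontal axes), Per2-/- (triangles) above wildtype (circles). Bars are 95% intervals and filled symbols have an adjusted p under 0.05. The filled symbols are Cebpd after I30 in wildtype hearts (0.69), after IP0 in Per2-/- hearts (0.90) and after I30R60 in both genotypes, and Fkbp5 after I30R60 in Per2-/- hearts (2.03).

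Counted over the 9 genes, the protocol with the most calls was I30R60 in Per2-/- hearts and over both genotypes, but not in wildtype hearts, where more of the genes differed from sham hearts without overlap after I30. In Per2-/- hearts 2 of the 9 genes were called after I30R60, where 4.79% of all genes were called, and 5 of 9 did not overlap with sham hearts, where 23% of all genes did not. The median difference of the 9 genes was 0.29 and that of all genes -0.04. Per2-/- sham replicate 3 is part of this comparison and had the lowest value of all arrays for Fkbp5, Zbtb16, Cebpb, Klf9 and Klf15. That raised their differences from sham hearts, and without it Fkbp5 rose by 1.37 in place of 2.03. The median without that array is not given here. In wildtype I30R60 hearts 1 of the 9 was called (2.47% of all genes), 1 did not overlap (19%), and the median was 0.16 beside -0.02 for all genes. After IP0, 1 of the 9 was called in Per2-/- hearts (0.159% of all genes), with 1 not overlapping (14.5%) and a median of 0.16 beside -0.02 for all genes. In wildtype IP0 hearts limma called 0 of the 9 (0.85% of all genes), with 2 of 9 at an unadjusted p under 0.05 (12.1%), 2 not overlapping (19.5%), and 0 called by a Student's test per gene. The median there was 0.23. In Per2-/- I30 hearts 0 of the 9 were called, as were 0% of all genes, and 0 of the 9 had an unadjusted p under 0.05 (7.14% of all genes) or did not overlap (13.2%). Sham replicate 3 is part of this comparison too. Against Per2-/- sham replicates 1 and 2 alone, all Per2-/- I30 hearts were lower for Fkbp5, Sgk1, Zbtb16, Cebpb and Klf9 and higher for Nr3c1. Zbtb16 was at most 10.14, against 10.44 and 10.58, while the gap of Fkbp5 was narrow (at most 7.08, against 7.10 and 7.55). Tsc22d3, Cebpd and Klf15 overlapped. The share of all genes without replicate 3 is not given here. In wildtype I30 hearts 1 of the 9 was called (2.39% of all genes), 4 did not overlap with sham hearts (24.7%), and the median was 0.35 beside 0.01 for all genes, above that of wildtype I30R60 hearts. The 4 were Fkbp5, Zbtb16, Cebpd and Klf15. Over both genotypes, 3 of 9 were called after I30R60 (9.34% of all genes), 1 after IP0 (1.94%) and 0 after I30 (1.61%, with 2 of 9 at an unadjusted p under 0.05, beside 20.1% of all genes). The medians over both genotypes were 0.19 after I30R60, with 6 of 9 differences above 0, 0.27 after IP0, with 9 of 9 above 0, and 0.08 after I30, with 7 of 9 above 0. These medians and signs, and the Per2-/- median after IP0, include Per2-/- sham replicate 3 and are not given without it. Zbtb16 had a mean of 10.26 in Per2-/- IP0 hearts, below Per2-/- sham replicates 1 and 2 (10.44 and 10.58). The sign of that difference thus rests on replicate 3. Between protocols, 3 of 9 were called for I30R60 against I30 (12.3% of all genes), 2 for I30R60 against IP0 (7.25%) and 1 for IP0 against I30 (6.74%). The comparisons with sham hearts share 1 sham group in each genotype.

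The genotypes differed most after I30, where the Per2-/- values of 6 of the 9 genes lay wholly below the wildtype values, as did those of 8.09% of all genes. Fkbp5 was 6.91, 7.08 and 6.93 in Per2-/- I30 hearts, against 8.56, 8.41 and 7.86 in wildtype I30 hearts. Zbtb16 was 9.34, 9.14 and 10.14 in Per2-/- hearts, against 10.80, 10.75 and 10.56 in wildtype hearts. Cebpb was 7.17, 7.19 and 7.68 in Per2-/- hearts, against 7.77, 7.69 and 7.77 in wildtype hearts. In each of these 3 genes all Per2-/- hearts were below all wildtype hearts, and the gap of Cebpb was narrow. Klf15 was 7.75, 7.33 and 7.94 in Per2-/- hearts, against 8.04, 8.34 and 8.004 in wildtype hearts. Nr3c1 went the other way, with 7.98, 7.99 and 7.94 in Per2-/- hearts, against 7.75, 7.75 and 7.65 in wildtype hearts. Cebpd and Klf9, given above, were also lower in all Per2-/- I30 hearts than in all wildtype I30 hearts, and Tsc22d3 and Sgk1 overlapped.

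None of these differences passed the test over all genes. The difference of Fkbp5 was -1.30 (95% interval -2.22 to -0.38, adjusted p = 0.213), that of Zbtb16 -1.16 (-2.15 to -0.17, adjusted p = 0.318) and that of Cebpd -0.72 (-1.08 to -0.36, adjusted p = 0.0604). Klf15 differed by -0.45 (adjusted p = 0.291), Cebpb by -0.40 (adjusted p = 0.512), Klf9 by -0.20 (adjusted p = 0.421) and Nr3c1 by 0.25 (adjusted p = 0.241). Thus 7 of the 9 genes did not overlap between the genotypes, beside 16.3% of all genes. In limma 0 of 9 were called (0.664% of all genes), 5 of 9 had an unadjusted p under 0.05 (12.3% of all genes), and a Student's test per gene called 0. Cebpd was called with quantile normalization (difference -0.78, adjusted p = 0.0385). The median difference of the 9 genes was -0.40 beside -0.01 for all genes. The interaction of genotype and I30, which sets these differences against those in sham hearts, called 0 of 9 genes (0% of all genes), with 1 of 9, Tsc22d3, at an unadjusted p under 0.05, beside 7.1% of all genes (difference -0.45, 95% interval -0.80 to -0.10, adjusted p = 0.574).

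In the other treatments the genotypes mostly overlapped. After IP0 only Tsc22d3 did not (8.27, 8.32 and 8.39 in Per2-/- hearts, against 8.12, 8.19 and 8.23 in wildtype hearts, difference 0.14, adjusted p = 0.963), beside 11.5% of all genes. After I30R60 only Nr3c1 did not (difference -0.12, adjusted p = 0.77), beside 12.4% of all genes. In sham hearts all 9 genes overlapped, while 14.3% of all genes did not. Limma called 0 of 9 genes in each of these 3 comparisons (0.0797%, 0.175% and 0.266% of all genes), and 0 of 9 in the interactions of genotype with IP0 and with I30R60 (0% of all genes in each). At an unadjusted p under 0.05 there were 0 of 9 after IP0 (5.82% of all genes), 0 after I30R60 (8.33%) and 1, Tsc22d3, in sham hearts (7.38%). The interaction with IP0 had 1, Cebpd (4.81%), and that with I30R60 had 0 (5.49%). Averaged over the 4 treatments, 0 of 9 were called (1.88% of all genes), and 0 had an unadjusted p under 0.05 (12.6%).

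**Figure D3:**
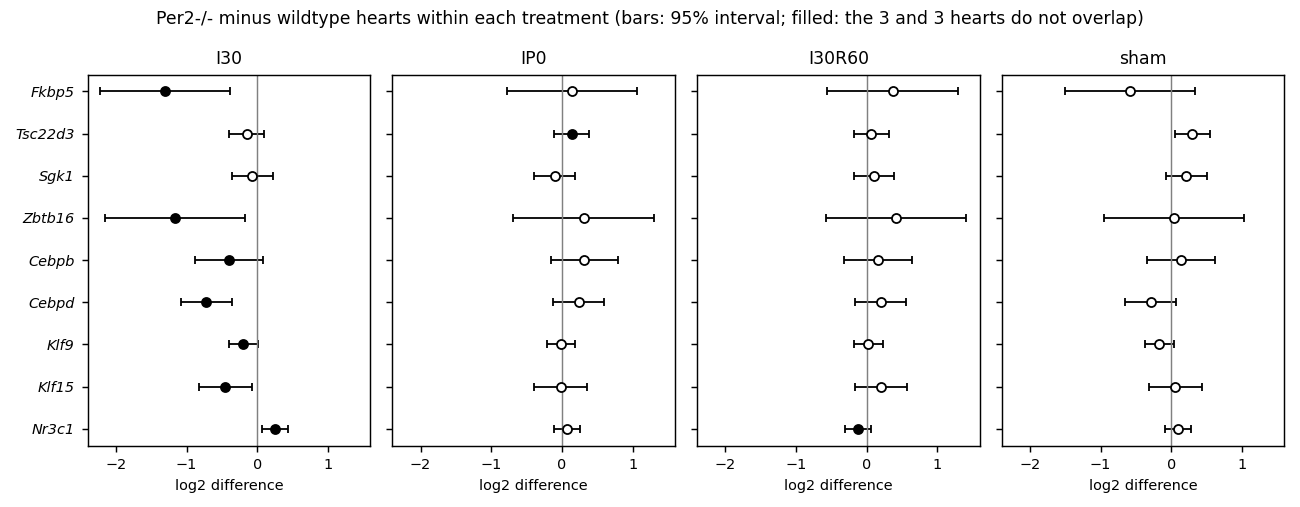
Log2 difference of Per2-/- minus wildtype hearts for each gene in the 4 treatments (horizontal axes). Bars are 95% intervals, and filled points mark genes whose 3 Per2-/- and 3 wildtype hearts do not overlap. After I30, 7 of the 9 points are filled, 6 of them below 0, against 1 after IP0, 1 after I30R60 and 0 in sham hearts.

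Markers of other cells moved with some of these results. The mean log2 value of 8 neutrophil genes was 4.82 to 5.54 in Per2-/- I30R60 hearts, against 3.43 to 3.86 in Per2-/- sham hearts, and 4.54 to 5.60 in wildtype I30R60 hearts, against 3.97 to 4.07 in wildtype sham hearts. Of these 8 genes, 6 were called higher in Per2-/- and 2 in wildtype hearts. Retnlg, expressed in neutrophils, was higher by 3.00 in Per2-/- I30R60 hearts (adjusted p = 0.000857). In wildtype I30R60 hearts the array with the highest neutrophil mean, replicate 1, also had the highest values of Fkbp5, Zbtb16, Cebpb, Cebpd and Klf15 in that group. After I30 the neutrophil mean lay between 3.89 and 4.00 for Per2-/- mice, below that of wildtype mice, 4.12 to 5.39. In wildtype I30 hearts the mean of 5 lung epithelial genes was 5.11, 4.28 and 3.67, against 2.73 to 2.83 in wildtype sham hearts and 3.05 to 3.42 in Per2-/- I30 hearts. Sftpc, a surfactant protein gene, was lower in Per2-/- than in wildtype I30 hearts (difference -2.15, adjusted p = 0.00513). The part of neutrophil or lung transcripts in the values of the 9 genes was not tested, and in these bulk samples fewer cells of a type cannot be told apart from less RNA per cell.

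Most of the 9 genes varied together between hearts that had the same genotype and treatment. Each heart's deviation from the mean of its group was taken for every gene, and the 36 pairs of genes were compared over the 24 hearts. Fkbp5 and Zbtb16 deviated together with Pearson's r of 0.85 (Spearman's rho 0.81, adjusted p = 0.00432 for r and 0.00612 for rho by 100000 permutations within groups). Zbtb16 and Klf15 had r of 0.85 (rho 0.82, adjusted permutation p = 0.00432), Zbtb16 and Cebpb r of 0.84 (rho 0.76, adjusted permutation p = 0.0184) and Fkbp5 and Cebpb r of 0.76 (rho 0.66, adjusted permutation p = 0.0184). Nr3c1 ran opposite to them, with r of -0.77 to Klf9 (rho -0.75, adjusted permutation p = 0.00516) and -0.76 to Cebpb (rho -0.70, adjusted permutation p = 0.0063). In all, 14 of the 36 pairs had an adjusted permutation p under 0.05, 9 with a positive and 5 with a negative r. How many of all pairs of genes would pass was not tested, and the permutations were not repeated without Per2-/- sham replicate 3. Tsc22d3, Sgk1 and Cebpd were in none of the 14. Not all of the 14 were rare among all genes. An r of at least the size of that of Zbtb16 and Klf9 (0.59), in either direction, was found for 4.45% of the other genes set against Zbtb16. For Klf9 and Klf15 (0.55) the share was 4.25% of the genes set against Klf9, and for Zbtb16 and Cebpb 0.138% of those set against Zbtb16.

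A single array weighed on these relations, more on some pairs than on others. Per2-/- sham replicate 3 had the lowest value of the 24 arrays for Fkbp5 (5.37), Zbtb16 (8.34), Cebpb (6.98), Klf9 (9.18) and Klf15 (7.26), and the highest for Nr3c1 (8.05). Without the 2 hearts farthest from the median of Fkbp5, r of Fkbp5 and Zbtb16 was 0.75, and without the Per2-/- sham group it was 0.72. For Zbtb16 and Klf15 these values were 0.76 and 0.75, and for Klf9 and Nr3c1 -0.76 and -0.82. Other pairs lost more without the Per2-/- sham group. There r was -0.57 for Zbtb16 and Nr3c1 (-0.75 with all hearts), -0.50 for Fkbp5 and Nr3c1 (-0.73), 0.55 for Fkbp5 and Klf15 (0.72) and -0.53 for Klf15 and Nr3c1 (-0.67). An r as high as that of Fkbp5 and Zbtb16 was found for 0.0797% of the other genes set against Fkbp5. The values of 1 array share its RNA sample and hybridization, and the part of these in the relation was not tested. For 19 of 24 arrays the closest array of another group had the same replicate number, and the part of this was not tested either.

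**Figure D4:**
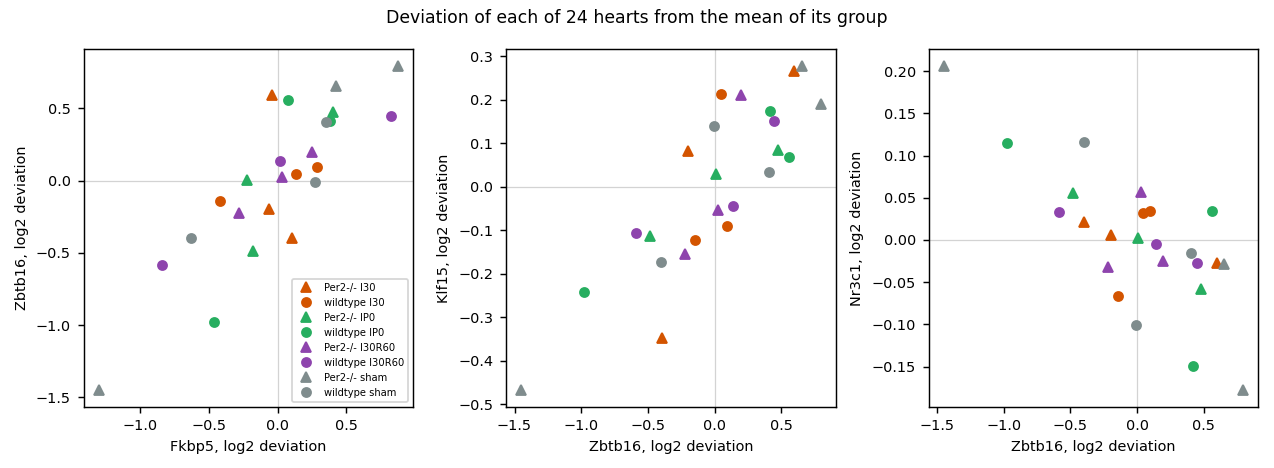
Deviation of each of 24 hearts from the mean of its group, in log2 units, for Zbtb16 against Fkbp5, Klf15 against Zbtb16 and Nr3c1 against Zbtb16. Triangles are Per2-/- and circles wildtype hearts, with a colour for each treatment. The first 2 pairs rise together (r of 0.85 in both), Nr3c1 falls as Zbtb16 rises (r of -0.75, and -0.57 without the Per2-/- sham group), and the isolated grey triangle is Per2-/- sham replicate 3.

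Over the levels in all 24 arrays, the genes most like each of the 9 were given as a description, since the arrays share the 8 groups. Map3k6, a kinase gene, was nearest to Fkbp5 (r = 0.94) and to Cebpb (r = 0.92). The next for Fkbp5 were Man2a1 (0.93) and Fam107a (0.92), of which Fam107a is known to be induced by glucocorticoids. Cebpd was nearest to Il4ra, Socs3 and Dennd4a (r = 0.93 for each), and Socs3 encodes the feedback inhibitor of the IL-6 and STAT3 pathway. Zbtb16 was nearest to Rnf144b (0.92), Klf9 to Pim3 (0.83), Nr3c1 to Prox1 (0.79), Sgk1 to Adgre5 (0.78), Klf15 to Slc9a3r2 (0.76) and Tsc22d3 to Spc24 (0.71).

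Other genes that glucocorticoids induce changed in part. Of 24 such genes, 8 were called higher after I30R60 over both genotypes and 0 lower, with a median of 0.28 beside -0.03 for all genes, of which 4.29% were called higher. Irs2, an adaptor of the insulin receptor, rose by 1.69 (adjusted p = 1.43e-06), the metallothionein gene Mt2 by 0.99 (adjusted p = 0.00495) and Cdkn1a, a cell cycle inhibitor, by 0.98 (adjusted p = 0.0149). Per2-/- sham replicate 3 was low for the last 2, and without it Mt2 was higher by 0.70 (adjusted p = 0.000709) and Cdkn1a by 0.64 (adjusted p = 0.00457). Cdkn1a was not called without the 4 arrays with high Myl7 (0.61, adjusted p = 0.064). Lcn2, which neutrophils also express, rose by 2.67 (adjusted p = 1.19e-05). The count was 6 of 24 in Per2-/- I30R60 hearts (2.78% of all genes called higher) and 3 of 24 in wildtype I30R60 hearts (1.66%). Without the 4 arrays with high Myl7, a choice made after seeing the data for all lists, 5 of 24 were higher over both genotypes (2.26% of all genes), 5 in Per2-/- and 1 in wildtype hearts. After IP0 over both genotypes 4 of 24 were higher (1.02% of all genes), led by Ddit4, an inhibitor of mTOR signalling (1.40, adjusted p = 0.00409), and with Dusp1, a phosphatase of MAP kinases (0.73, adjusted p = 0.00332). After IP0 2 of 24 were higher without the 4 arrays (0.367% of all genes), and Ddit4 was not called (0.98, adjusted p = 0.227). After I30, 0 of 24 were called by limma in wildtype hearts (2.39% of all genes), and in Per2-/- hearts 0% of all genes were called. In the comparison of the genotypes after I30, 1 of 24 was called, Errfi1, a feedback inhibitor of the EGF receptor, which was higher in Per2-/- than in wildtype hearts by 1.24 (adjusted p = 0.0385). Of 12 measured chaperones, cofactors and enzymes of the receptor, the chaperone genes Hsp90aa1 (0.83, adjusted p = 0.00368) and Bag3 (0.38, adjusted p = 0.000635) rose after I30R60 (4.29% of all genes called higher), and the median of the 12 was -0.01. Neither was called without the 4 arrays (0.61, adjusted p = 0.14, for Hsp90aa1, and 0.33, adjusted p = 0.0502, for Bag3).

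Genes around the C/EBP factors also rose after I30R60. A list of 13 genes tied to the induction of Cebpb and Cebpd held genes of the IL-6 and STAT3 axis. It also held Tnf, Il1b, Il1r1, Creb1 and Crem, which are not of that axis. Of the 13, 7 rose in Per2-/- hearts (2.78% of all genes called higher) and 7 in wildtype hearts (1.66%). Over both genotypes Il6 rose by 4.13 (adjusted p = 7.05e-08), Socs3 by 3.84 (adjusted p = 1.5e-08), Tnf by 1.81 (adjusted p = 0.000121) and Il1b by 1.65 (adjusted p = 0.000493). Of 11 measured C/EBP targets and acute phase genes, 7 rose after I30R60 in Per2-/- and 6 in wildtype hearts, with medians of 1.47 and 0.89. Without Per2-/- sham replicate 3 the count of these 11 in Per2-/- hearts was 4 (1.78% of all genes), and without the 4 arrays with high Myl7 it was 4 in Per2-/- and 3 in wildtype hearts, and 4 of the 13 in wildtype hearts. They included the pentraxin gene Ptx3 (2.58 over both genotypes, adjusted p = 3.17e-06) and the chemokine gene Cxcl1 (2.05, adjusted p = 6.3e-06), and Il6 and Lcn2, which 2 of the lists share. After IP0 4 of these 11 were higher over both genotypes (1.02% of all genes), and 2 without the 4 arrays, with Il6 at 2.00 (adjusted p = 0.0027). After I30, 0 of 11 and 0 of 13 were called in wildtype hearts (2.39% of all genes). Of the other 3 measured C/EBP genes, Cebpa, Cebpe and Cebpg, 0 were called in any comparison.

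Relatives of the 9 genes were called where the genes themselves were not. Of 20 paralogs, 6 rose after I30R60 over both genotypes (4.29% of all genes called higher), among them Klf6 (1.01, adjusted p = 9.9e-08), Klf4 (0.76, adjusted p = 0.00146), Klf5 (0.70, adjusted p = 0.0015) and Tsc22d2 (0.51, adjusted p = 4.1e-05), while Klf9, Klf15 and Tsc22d3 were not called. Without the 4 arrays with high Myl7 4 of 20 were called (2.26% of all genes), and Klf4 was not (0.70, adjusted p = 0.0587). Klf6, an early response factor, also rose after IP0 (0.71, adjusted p = 6.68e-05). Of 12 genes known as targets of KLF15 or KLF9, 1 rose after I30R60, Cdkn1a, and 1 after IP0, Ddit4 (1.02% of all genes), and both also stand on the list of genes induced by glucocorticoids. Neither was called without the 4 arrays. After I30R60, Slc25a20, the mitochondrial carnitine carrier (-0.22, adjusted p = 0.0116), and Slc2a4, the insulin-responsive glucose transporter (-0.17, adjusted p = 0.0447), were lower than after IP0.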

How the data were processed

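Total RNA of the left ventricle was hybridized to Affymetrix Mouse Gene 1.1 ST arrays, as the methods of the study state. The authors normalized the arrays by RMA in Partek, and 35555 probe sets were deposited as log2 values. Of these, 21218 were paired with 1 gene symbol, 1881 with several and 12456 were not listed in the pairing used here. Where a gene had several (1386 genes), the probe set of highest mean was kept.

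The 8 group means were fitted over all 24 arrays with limma 3.58.1 in R 4.3.3 (16 residual degrees of freedom), with Benjamini-Hochberg adjustment over 18820 genes in each comparison. A gene was called at an adjusted p under 0.05. Correlations used numpy 2.4.6 (Python 3.11.15). The fit was tested on simulated data. The alternatives covered scaling, filters, the choice of probe set, moderation, array weights, a replicate block, each array left out, a Student's test per gene and the thresholds. All 9 genes were named, with up to 4 called genes of each list, those of the largest change, and the 3 genes most like each. The 9 genes, the lists and the limit of 4.5 for Myl7 were chosen with earlier results of these data known. The 3 mice of a group are its replicates.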

Additional observations from a re-analysis of the deposited data

How the results depend on the processing

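Leaving out each array in turn moved the number of the 9 genes called to 0 to 1 (1 with all arrays) for Per2-/- IP0 against sham, 1 to 3 (2) for Per2-/- I30R60 against sham, 0 to 1 (1) for wildtype I30 against sham, 0 to 1 (0) for I30 against sham over both genotypes, 2 to 5 (3) for I30R60 against I30, 2 to 4 (2) for I30R60 against IP0, 0 to 1 (1) for IP0 against I30 and 0 to 1 (0) for Per2-/- against wildtype after I30. Fitting only the groups compared gave 0 for Per2-/- IP0, 1 for Per2-/- I30R60 and 0 for wildtype I30. A Student's test per gene gave 0 for Per2-/- IP0, Per2-/- I30R60, wildtype I30 and wildtype I30R60. Without the 4 arrays with high Myl7 the counts were 0, 1 and 0 for Per2-/- IP0, Per2-/- I30R60 and wildtype I30, 0 for IP0 against sham over both genotypes, 5 for I30R60 against I30 and 4 for I30R60 against IP0. A change of at least 2-fold left 0 for Per2-/- IP0, wildtype I30, IP0 against sham, I30R60 against IP0 and IP0 against I30, and 1 for I30R60 against I30. An adjusted p under 0.1 gave 5 for I30R60 against I30, 4 for I30R60 against IP0, and 1 for I30 against sham and for Per2-/- against wildtype after I30. These last 2 counts were also 1 for genes at or above percentile 40 of the mean and with trended, robust moderation. Array weights gave 1 for I30 against sham, quantile normalization 1 for Per2-/- against wildtype after I30 and 0 for IP0 against I30, and centring on the median 2 for IP0 against sham. No called difference turned its direction. Of the counts, 58 moved and 672 stayed within 1.5 times, and the 672 include counts of 0 that stayed 0. These counts stand without the share of all genes called under the same setting. A moved count therefore cannot be told apart from a change over all genes. The causes were not tested.

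The replicate numbers were not taken as pairs. Same-numbered arrays of different groups correlated by 0.0203 on average in their deviations and others by -0.0101, 1 of 28 pairs of groups had every such correlation over 0.1, and for 19 of 24 arrays the closest array had the same number. With the replicate block, 0 of the 9 genes were called for Per2-/- IP0 and for wildtype I30 (Cebpd, adjusted p = 0.0594 and 0.0521), and no other count of the 9 genes changed.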
